A study of Homo sapiens with 4 samples.

Results

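The genes of this account encode translation initiation and elongation factors. Members were found by symbol, as names that start with EIF and a digit from 1 to 6 or with EEF and the digit 1 or 2, without the eIF2 kinases EIF2AK1 to EIF2AK4. There were 67 such genes among the 28058 in the count table. Poly(A) RNA was sequenced from cells labelled as the human neuroblastoma line SH-SY5Y. The SWT group held 2 libraries of cells given shock wave treatment (SWT), pressure pulses sent through a water bath at 37 °C (300 impulses of 0.08 mJ/mm2 at 3 Hz, 7 cm from the applicator). The control group held 2 libraries without treatment. RNA was isolated at 6 h after SWT, and both groups shared the same medium with fetal calf serum. The series design text speaks of exosomes from such treatment instead; which of these the cells received is not settled here. The labels do not state that the replicates are separate cultures. The p-values therefore rest on the spread between these libraries alone, which may be technical.

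Initiation factors bring the small ribosomal subunit and the initiator tRNA to the start codon of a capped mRNA. Elongation factors then deliver aminoacyl-tRNAs (eEF1A), recharge eEF1A with GTP (the eEF1B subunits) and move the ribosome along (eEF2). The mRNAs of the elongation factors, like those of ribosomal proteins and of a few initiation factor subunits, are known as TOP mRNAs. They begin with a C and a run of pyrimidines, the terminal oligopyrimidine tract, through which the kinase complex mTORC1 and the protein LARP1 control their translation and stability. Most initiation factor mRNAs are not counted in this class. The comparison of TOP-type elongation factors (EEF1A1, EEF1A2, EEF1B2, EEF1D, EEF1G and EEF2) with 33 initiation factor genes asks whether the level of these mRNAs moved apart after SWT.

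The sequence at the annotated start is the feature that sets the TOP class apart, and it is shown for the elongation factors and for some initiation factors with and without a long run. Each line gives 5 bases before and 25 from the start, 5′ to 3′, from RefSeq on GRCh38.p14. Capitals mark the longest run made of a C and at least 4 further C or T that begins within 10 bases of the start, read on the gene's own strand.
EEF1A1: acgttCTTTTTCgcaacgggtttgccgcca
EEF2: gcgttCTCTTCCgccgtcgtcgccgccatc
EEF1B2, downstream start: cgggtCCTTTTTCCTCTCTTCagcgtgggg
EEF1B2, upstream start: gccccagcctcgaggccgggcgtcttcggt
EEF1G: ggcttactttgcggcagcgccgagaacccc
EIF3F: gCCTCCTTCTTTCTCgacaagatggccaca
EIF4B: cgggtcttttgcgttCTCTTTCCCTCTCCC
EIF3M: gttCCCTTTTCCggtcggcgtggtcttgcg
EIF4G1, upstream start: gagccggaaatggttgtggactacgtctgt
EIF2B3: cagtcagaggcggcgtggagatcgctggga
The windows lie at chr6:73521008-73521037 for EEF1A1 (minus strand), chr19:3985439-3985468 for EEF2 (minus), chr2:206159890-206159919 and chr2:206159604-206159633 for EEF1B2 (plus) and chr11:62573867-62573896 for EEF1G (minus). Those of the initiation factors lie at chr11:7987332-7987361 for EIF3F (plus), chr12:53006451-53006480 for EIF4B (plus), chr11:32583826-32583855 for EIF3M (plus), chr3:184314601-184314630 for EIF4G1 (plus) and chr1:44986571-44986600 for EIF2B3 (minus).

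Of the 67 members, 51 matched the promoter table by symbol. At any of its listed starts, such a run was found for 3 of 4 matched elongation factor genes (75%), 15 of 27 matched initiation factor genes (55.6%) and 58 of 63 matched ribosomal protein genes (92.1%), against 38.4% of the 27305 genes in the table. Read from the first base of a start, a C and 4 pyrimidines were found for the same number, 3 of 4, of the elongation factor genes. They were found for 7 of 27 initiation factor genes (25.9%), 47 of 63 ribosomal protein genes (74.6%) and 5.14% of all genes in the table. This count includes starts where the run itself begins further upstream, as in EIF3F and EIF3M. In EEF1G no such run stood near the listed start. EIF4G1, shown at its upstream start, counts among the genes with a run, as its other listed starts each had a run of 5 bases. A match describes the letters of these windows and not a site in use.

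The label of the cells was checked against markers. Of 17 noradrenergic neuroblastoma markers, 3 reached 10 CPM (the counts of a gene scaled to a common library size, after TMM normalization) in every library, and PHOX2A, TH, DBH, DDC, CHGA and MYCN are listed at 0 in all 4. Of 12 mesenchymal markers, 10 reached 10 CPM in every library. The noradrenergic list summed to 123 and 113 CPM in the SWT libraries and to 126 and 125 CPM in the controls. The mesenchymal list summed to 12124 and 13009 CPM in the SWT libraries and to 13689 and 12537 CPM in the controls. A list of 20 heart muscle genes summed to 41.1 and 11.4 CPM in SWT replicates 1 and 2 and to 8.79 and 384 CPM in control replicates 1 and 2. The part of these differences in the results given here was not tested. In bulk RNA, fewer cells of a type and less RNA per cell cannot be told apart.

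Together the members took 1.89% and 1.93% of counts in the SWT libraries and 1.92% and 1.93% in the controls. Of the 67, 57 passed the filter on low counts. EEF1D, EIF3C, EIF3CL, EIF4A1 and EIF4E1B are listed at 0 in all 4 libraries. EEF1D (a guanine exchange subunit of eEF1B), EIF3C (a core subunit of eIF3) and EIF4A1 (the main helicase of the cap complex) are used by every cell, so their 0 says only how they are listed. Sequence shared with other genes was measured as 50-base windows of the transcript found in a transcript of another gene name. For EIF3C the shared part was 97.3%, with the copy EIF3CL as the main partner (90.1%). For EIF4A1 it was 97.0%, and its locus lies for 95.4% of its length inside the annotated read-through gene SENP3-EIF4A1, which itself had 8 and 1 counts in SWT and 2 and 7 in control. For EEF1D it was 8.56%. The part of shared sequence in these 0 counts was not tested. EEF1DP3, EIF3IP1, EIF4E3 and EIF4EBP3 had at most 7 counts in any library and were not tested either.

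Elongation factor genes stood slightly lower in SWT by value, and none passed the test. All 5 tested members had a log2 fold change below 0, with a median of -0.058, against 50.3% of the 12399 genes tested that lay below 0, with a median of -0.00078. No gene passed: edgeR called 0% of the genes higher and 0% lower, DESeq2 and limma called none, and 5.77% of genes had an unadjusted edgeR p under 0.05. Among the elongation factors that last count was 0 of 5. In EEF1A1 and EEF1B2, 2 of 5, both SWT libraries lay below both controls, as they did in 18% of all genes.

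EEF1A1 encodes the main eEF1A, which brings aminoacyl-tRNA to the ribosome (chromosome 6, 73515750 to 73523797 on GRCh38, 9 exons). It had 3431 and 3515 CPM in SWT libraries and 3542 and 3647 CPM in controls. The SWT libraries were the lower pair, but the gap between SWT replicate 2 and control replicate 1 was smaller than the spread within either group. The log2 fold change was -0.050 (SE 0.039, 95% interval -0.13 to 0.032, edgeR adjusted p = 0.910). EEF1A2, the form known from neurons and muscle (chromosome 20, 63488012 to 63499322), had 13.2 and 16.2 CPM in SWT libraries and 16.1 and 16.2 CPM in controls. SWT replicate 1 alone was low, and the log2 fold change of -0.13 (SE 0.13; adjusted p = 0.929, edgeR) was 0.0067 without that library. Per kilobase of transcript, EEF1A2 made up 0.654% and 0.784% of the eEF1A mRNA in SWT libraries and 0.772% and 0.754% in controls.

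EEF1B2, the exchange subunit eEF1B alpha (chromosome 2, 206159585 to 206162928), had 473 and 474 CPM in SWT libraries and 499 and 506 CPM in controls. Both groups were tight and did not overlap. Its log2 fold change was -0.086 (SE 0.050, 95% interval -0.19 to 0.021, edgeR adjusted p = 0.870), and it lay between -0.095 and -0.074 with each library left out in turn. EEF1G, the gamma subunit that holds the eEF1B complex together (chromosome 11, 62559601 to 62574086), had 737 and 775 CPM in SWT libraries and 801 and 769 CPM in controls. The groups overlapped, with a log2 fold change of -0.054 (SE 0.050; adjusted p = 0.926, edgeR). Leaving out SWT replicate 1 gave -0.020, control replicate 1 -0.024, SWT replicate 2 -0.089 and control replicate 2 -0.082. EEF2, the translocase (chromosome 19, 3976056 to 3985469), had 2506 and 2686 CPM in SWT libraries and 2840 and 2565 CPM in controls. Here control replicate 1 stood above the other 3 libraries, and the log2 fold change of -0.058 (SE 0.050; adjusted p = 0.912, edgeR) was 0.019 without it and -0.13 without control replicate 2. Shared sequence makes some single values uncertain. It covered 34.6% of the EEF1A1 transcript, which has many processed pseudogenes, 56.8% of EEF1B2 and 98.7% of EEF1G, where GENCODE has a read-through gene over the locus, against 0% of EEF2 and EEF1A2.

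**Figure D1:**
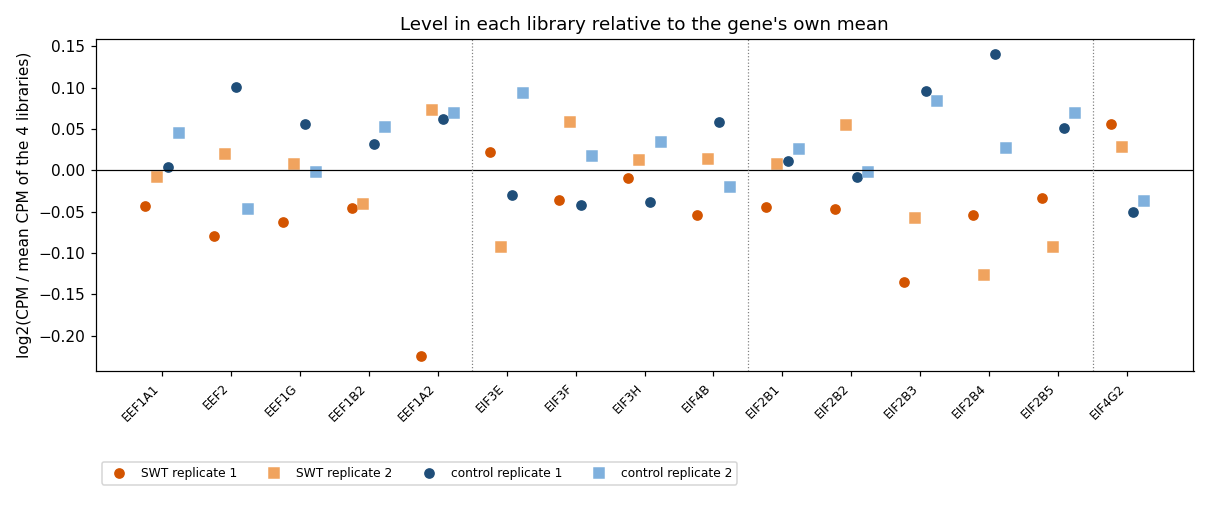
Level of 15 genes in each of the 4 libraries as log2 of CPM over the gene's own mean, SWT libraries in orange and left of control libraries in blue, circles for replicate 1 and squares for replicate 2. From left to right stand elongation factors, initiation factors known as TOP mRNAs, eIF2B subunits and EIF4G2. SWT replicate 1 is the lowest library in all 5 elongation factors, and EIF2B3, EIF2B4 and EIF2B5 have both SWT libraries below both controls.

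Set against the initiation factors, the elongation factors were lower by value. With all 4 libraries the gap was larger than its SD between libraries of a group. Without SWT replicate 1 or control replicate 1 it was close to that SD. The 31 tested initiation factor genes had a median log2 fold change of 0.013, with 20 above 0 and 11 below 0. The elongation median minus the initiation median was -0.071, while the same quantity had an SD of 0.043 between libraries of a group. Leaving out 1 library at a time gave -0.043 without SWT replicate 1, -0.080 without SWT replicate 2, -0.042 without control replicate 1 and -0.12 without control replicate 2. For the elongation median itself, omission of SWT replicate 1 gave -0.020, and that of SWT replicate 2 gave -0.089. The initiation median was -0.028 without control replicate 1 and -0.0098 without SWT replicate 2, so its sign was not stable.

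The summed level of the elongation list was 7160 and 7465 CPM in SWT libraries and 7698 and 7503 CPM in controls. The initiation list summed to 8238 and 8344 CPM in SWT libraries and to 8127 and 8393 CPM in controls. The ratio of the sums was 0.869 and 0.895 in SWT libraries and 0.947 and 0.894 in controls. Control replicate 1 stood apart with the highest ratio, and SWT replicate 2 and control replicate 2 had nearly the same ratio.

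Between single libraries the elongation list did not keep its position. Its median difference in log2 CPM was -0.12 for SWT replicate 1 minus control replicate 1 and -0.088 for SWT replicate 1 minus control replicate 2. For SWT replicate 2 it was -0.048 against control replicate 1 and 0.0036 against control replicate 2. The SWT libraries themselves differed by 0.071 (replicate 2 minus 1) and the controls by 0.0063. The 76 tested ribosomal protein genes, the largest TOP class, had medians of -0.073, -0.062, -0.080 and -0.059 in the same order of pairs, 0.0015 between the SWT libraries and -0.016 between the controls. Their median log2 fold change was -0.073, with 69 of 76 below 0, and both SWT libraries lay below both controls in 51, against 18% of all genes. In 14 of them the unadjusted edgeR p was under 0.05 with a lower SWT value, against 2.96% of all genes, and none passed after adjustment. The difference between these lists was not tested. As a ratio, the summed CPM of elongation factors over ribosomal protein genes was 0.163 and 0.169 in SWT libraries and 0.165 and 0.163 in controls, with overlap of the groups.

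**Figure D2:**
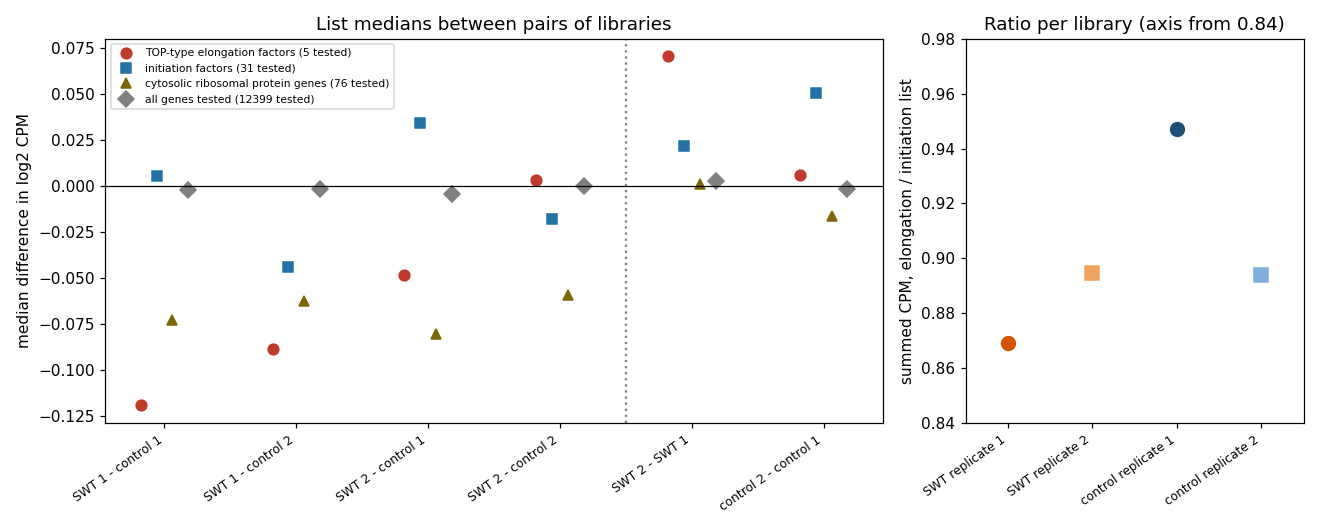
Left, median difference in log2 CPM between pairs of libraries for 4 lists of genes, with pairs across the groups left of the dotted line and pairs within a group right of it. Right, summed CPM of elongation over initiation factor genes in each library, on an axis that starts at 0.84. The elongation median runs from -0.12 to 0.0036 across the groups and is 0.071 between the SWT libraries, while the ribosomal protein median lies between -0.080 and -0.059 in every pair across the groups.

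Libraries of the groups also differed along GC content and transcript length. For the 6293 genes whose mean exceeded 5 on the log2 CPM scale, the log2 fold change correlated across genes with GC content at a Spearman rho of -0.400 and with transcript length at 0.229; genes are not independent and no p is attached. Over the 56 tested members with a known transcript the rho with GC content was -0.396. The tested elongation factors had a median GC content of 54.8%, the tested initiation factors 47.3% and all tested genes 49.3%. With each library's trend with length and GC content removed, the elongation median was -0.078, the initiation median 0.0090 and their difference -0.087. EEF1A1 then stood lower, at -0.081. The other 4 stood nearer to 0, EEF1A2 at -0.080, EEF1B2 at -0.078, EEF1G at -0.020 and EEF2 at -0.016. For the ribosomal protein genes, the median with these trends removed was -0.052. Their median transcript length was 691.5 bases, against 2273 for all tested genes. The part of GC content and length in these values was not tested.

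**Figure D3:**
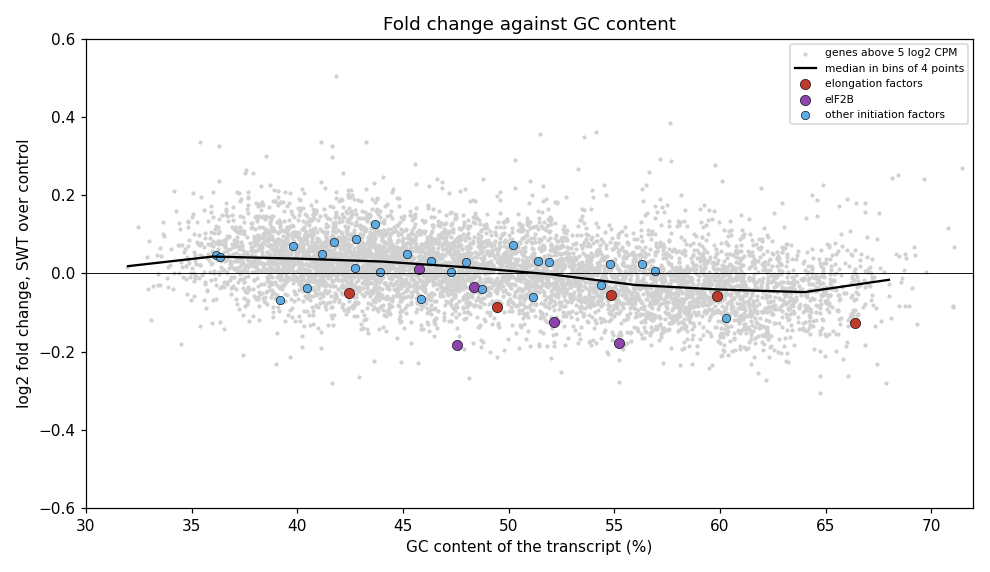
Log2 fold change of SWT over control against the GC content of the transcript, in percent, for genes above 5 log2 CPM in grey with their median in bins as a line, and for tested elongation factors (red), eIF2B subunits (purple) and other initiation factors (blue). The grey cloud slopes down with GC content (Spearman rho -0.400), and the 5 elongation factors and 4 of 5 eIF2B genes lie below 0.

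Initiation factors known as TOP mRNAs lay on both sides of 0, and their difference from the elongation factors was not tested. EIF3E, EIF3F and EIF3H, subunits of eIF3, and EIF4B, which aids the helicase of the cap complex, had a median log2 fold change of -0.018, with 2 above 0 and 2 below 0. EIF3E had 387 and 358 CPM in SWT libraries and 374 and 407 CPM in controls, a log2 fold change of -0.067 (SE 0.059). Omitting control replicate 2 gave -0.0041 for EIF3E, SWT replicate 2 -0.0098, control replicate 1 -0.13 and SWT replicate 1 -0.13. EIF4B had 401 and 421 CPM in SWT libraries and 434 and 411 CPM in controls, at -0.039 (SE 0.054). EIF3F had 150 and 160 CPM in SWT libraries and 149 and 156 CPM in controls, at 0.025 (SE 0.061), and EIF3H stood at 0.0035 (SE 0.056). All 4 had overlapping groups and edgeR adjusted p-values from 0.918 to 0.998. Sequence shared with other genes covered 57.0% of the EIF4B transcript, 46.9% of EIF3F and 19.1% of EIF3E, against 0% of EIF3H.

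The eIF2B subunits stood lowest among the initiation factor groups by value. eIF2B is the exchange factor that recharges eIF2 with GTP, and the step it catalyses is the one blocked in the integrated stress response. In 4 of its 5 subunit genes both SWT libraries lay below both controls, against 18% of all genes, and the median log2 fold change was -0.12. The group is set apart here by its low values, so this share is not separate evidence. Over the 31 tested initiation factor genes, both SWT libraries lay below both controls in 6, these 4 included, and above them in 2. Groups thus did not overlap in 25.8% of that list, against 35.3% of all genes. None of the eIF2B genes passed: EIF2B3 and EIF2B4 had unadjusted edgeR p-values of 0.0343 and 0.0392, and their edgeR adjusted p was 0.843. EIF2B3, the gamma subunit (chromosome 1, 44850522 to 44986722), had 36.9 and 39.0 CPM in SWT libraries and 43.3 and 43.0 CPM in controls. Its log2 fold change was -0.18 (SE 0.080, 95% interval -0.35 to -0.015), and it ran from -0.22 to -0.15 with each library left out.

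EIF2B4, the delta subunit (chromosome 2, 27364352 to 27370486), had 42.1 and 40.0 CPM in SWT libraries and 48.2 and 44.5 CPM in controls. EIF2B5, the catalytic epsilon subunit (chromosome 3, 184135038 to 184146112), had 85.5 and 82.1 CPM in SWT libraries and 90.6 and 91.8 CPM in controls. Their log2 fold changes were -0.18 (SE 0.080) and -0.12 (SE 0.064), and both genes are named after their values were seen. EIF2B1, the alpha subunit and the most abundant of the 5 per kilobase, had 116 and 121 CPM in SWT libraries and 121 and 122 CPM in controls, at -0.036 (SE 0.060, edgeR adjusted p = 0.963). EIF2B2, the beta subunit, had 72.6 and 77.9 CPM in SWT libraries and 74.5 and 74.9 CPM in controls, with the controls between the SWT libraries. The eIF2B median was -0.11 with the trends with length and GC content removed, and -0.15 to -0.093 with each library left out.

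eIF2 itself, the carrier of initiator tRNA and the substrate of eIF2B, lay on the other side of 0 by value. EIF2S1, EIF2S2 and EIF2S3 encode its alpha, beta and gamma subunits. EIF2S3 had 496 and 481 CPM in SWT libraries and 470 and 498 CPM in controls, and the log2 fold change was 0.013 (SE 0.053; adjusted p = 0.992, edgeR). EIF2S1 had 194 and 200 CPM in SWT libraries and 188 and 194 CPM in controls, and EIF2S2 had 159 and 161 CPM in SWT libraries and 143 and 166 CPM in controls. Groups overlapped in all 3. EIF2A, an alternative initiator tRNA carrier, had 164 and 168 CPM in SWT libraries and 158 and 160 CPM in controls, at 0.059 (SE 0.058, edgeR adjusted p = 0.928). EIF2S3L, listed by an older symbol, had 8 and 17 counts in SWT libraries and 24 and 9 in controls.

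Genes named for eIF1 and eIF1A lay above 0 by value in all 4 tested members, against 49.7% of all genes, with a median of 0.080. They include EIF1AD, which is not in the initiation list. Only in EIF1 did both SWT libraries lie above both controls, as they did in 17.3% of all genes. Against control replicate 2 the median difference in log2 CPM was 0.011 for SWT replicate 1 and -0.072 for SWT replicate 2. EIF1, which keeps the scanning ribosome open (chromosome 17, 41688885 to 41692668), had 431 and 438 CPM in SWT libraries and 404 and 423 CPM in controls, and the log2 fold change was 0.072 (SE 0.053; adjusted p = 0.902, edgeR). EIF1AX, which encodes eIF1A (chromosome X, 20124518 to 20141844), had 98.6 and 88.3 CPM in SWT libraries and 79.5 and 91.7 CPM in controls, at 0.13 (SE 0.077, edgeR adjusted p = 0.875). The controls differed from each other by more than the groups did in EIF1AX, whose SWT and control ranges overlap. Its value was 0.024 when control replicate 1 was left out, 0.047 without SWT replicate 1, 0.21 without SWT replicate 2 and 0.23 without control replicate 2. In this role group the controls differed by a median of 0.22 in log2 CPM (replicate 2 minus 1).

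eIF3, the large scaffold that links the small subunit to the cap complex, was even across the groups. Of its 12 tested subunit genes 8 lay above 0 and 4 below, the median was 0.013 on the log2 scale, and every 95% interval lay within 0.25 of 0. EIF3A, the largest subunit (chromosome 10, 119033670 to 119080823), had 550 and 571 CPM in SWT libraries and 560 and 558 CPM in controls, at 0.0035 (SE 0.050, edgeR adjusted p = 0.998). EIF3G, an RNA-binding subunit (chromosome 19, 10115017 to 10119918), had the smallest p of the family. It had 208 and 220 CPM in SWT libraries and 229 and 234 CPM in controls, and the log2 fold change was -0.11 (SE 0.057; adjusted p = 0.843, edgeR). EIF3I, with 423 and 424 CPM in SWT libraries and 439 and 444 CPM in controls, was the other subunit whose SWT libraries both lay below the controls. These 2 made 16.7% of the tested subunits, against 18% of all genes.

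The cap-binding complex eIF4F joins the cap-binding protein eIF4E, the scaffold eIF4G and the helicase eIF4A. EIF4G2, a relative of the scaffold that lacks the eIF4E-binding site and serves cap-independent initiation (chromosome 11, 10797050 to 10809110), had 1416 and 1389 CPM in SWT libraries and 1314 and 1327 CPM in controls. The groups did not overlap, as in 35.3% of all genes, and the gap was larger than the difference within either group. Its log2 fold change was 0.086 (SE 0.044, 95% interval -0.0064 to 0.18), which did not pass (edgeR adjusted p = 0.843). It was 0.052 without the trends with length and GC content and 0.072 to 0.10 with each library left out. EIF4G1, the main scaffold, had 1109 and 1151 CPM in SWT libraries and 1127 and 1125 CPM in controls, with the controls between the SWT libraries. EIF4E had 38.9 and 35.1 CPM in SWT libraries and 35.9 and 41.7 CPM in controls. EIF4A2, a close paralogue of the helicase EIF4A1, had 172 and 171 CPM in SWT libraries and 167 and 185 CPM in controls. EIF4A3, a paralogue known from the exon junction complex, had 132 and 136 CPM in SWT libraries and 129 and 137 CPM in controls.

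The 4E-binding proteins hold eIF4E away from the scaffold until mTORC1 phosphorylates them. EIF4EBP1 had 90.0 and 94.5 CPM in SWT libraries and 92.1 and 92.6 CPM in controls. EIF4EBP2 had 153 and 148 CPM in SWT libraries and 147 and 141 CPM in controls, and the log2 fold change was 0.059 (SE 0.060; adjusted p = 0.929, edgeR). EIF4E2, an eIF4E homologue that acts in repression, had 180 and 189 CPM in SWT libraries and 178 and 182 CPM in controls, at 0.035 (SE 0.058, edgeR adjusted p = 0.962). The 4 tested members of this role group lay at or above 0, with a median of 0.036.

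The late initiation factors eIF5 and eIF5B, which trigger GTP hydrolysis and join the large subunit, lay above 0 by value. EIF5 had 373 and 359 CPM in SWT libraries and 330 and 377 CPM in controls, and the log2 fold change was 0.050 (SE 0.063; adjusted p = 0.941, edgeR). EIF5B had 268 and 261 CPM in SWT libraries and 247 and 258 CPM in controls, at 0.069 (SE 0.056, edgeR adjusted p = 0.912). EIF6, which keeps free large subunits apart from small ones, had 198 and 190 CPM in SWT libraries and 200 and 195 CPM in controls.

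eIF5A is named as an initiation factor but acts in elongation and termination, and it carries hypusine, a modified lysine. EIF5A (chromosome 17, 7306999 to 7312463) had 813 and 845 CPM in SWT libraries and 843 and 818 CPM in controls, a log2 fold change of -0.0023 (SE 0.049, 95% interval -0.10 to 0.10, edgeR adjusted p = 0.998). Its paralogue EIF5A2 (chromosome 3, 170888415 to 170908693) had 35.7 and 30.9 CPM in SWT libraries and 27.8 and 30.6 CPM in controls, at 0.19 (SE 0.10, edgeR adjusted p = 0.851). SWT replicate 2 exceeded control replicate 2 by less than the spread within either group. EIF5A2 stood at 0.082 without SWT replicate 1 and at 0.29 without SWT replicate 2.

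Among the enzymes that act on elongation factors, EEF1AKMT1, EEF1AKMT3 and EEF1AKMT4, lysine methyltransferases at low levels, were 3 of the 5 members farthest from 0. EEF1AKMT3, which acts on eEF1A (chromosome 12, 57771492 to 57782541), had 11.4 and 11.2 CPM in SWT libraries and 9.48 and 7.49 CPM in controls, from 74 to 130 counts a library. The log2 fold change was 0.40 (SE 0.15, 95% interval 0.075 to 0.73, unadjusted p = 0.0188), which did not pass (edgeR adjusted p = 0.838). Leaving out control replicate 2 gave 0.25, and leaving out control replicate 1 gave 0.59. EEF2K, the kinase that phosphorylates and inhibits eEF2, had 51.1 and 49.7 CPM in SWT libraries and 48.7 and 48.1 CPM in controls, at 0.057 (SE 0.074, edgeR adjusted p = 0.941). EEF1E1, which despite its name belongs to the multisynthetase complex, had 16.6 and 14.2 CPM in SWT libraries and 12.9 and 16.9 CPM in controls.

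**Figure D4:**
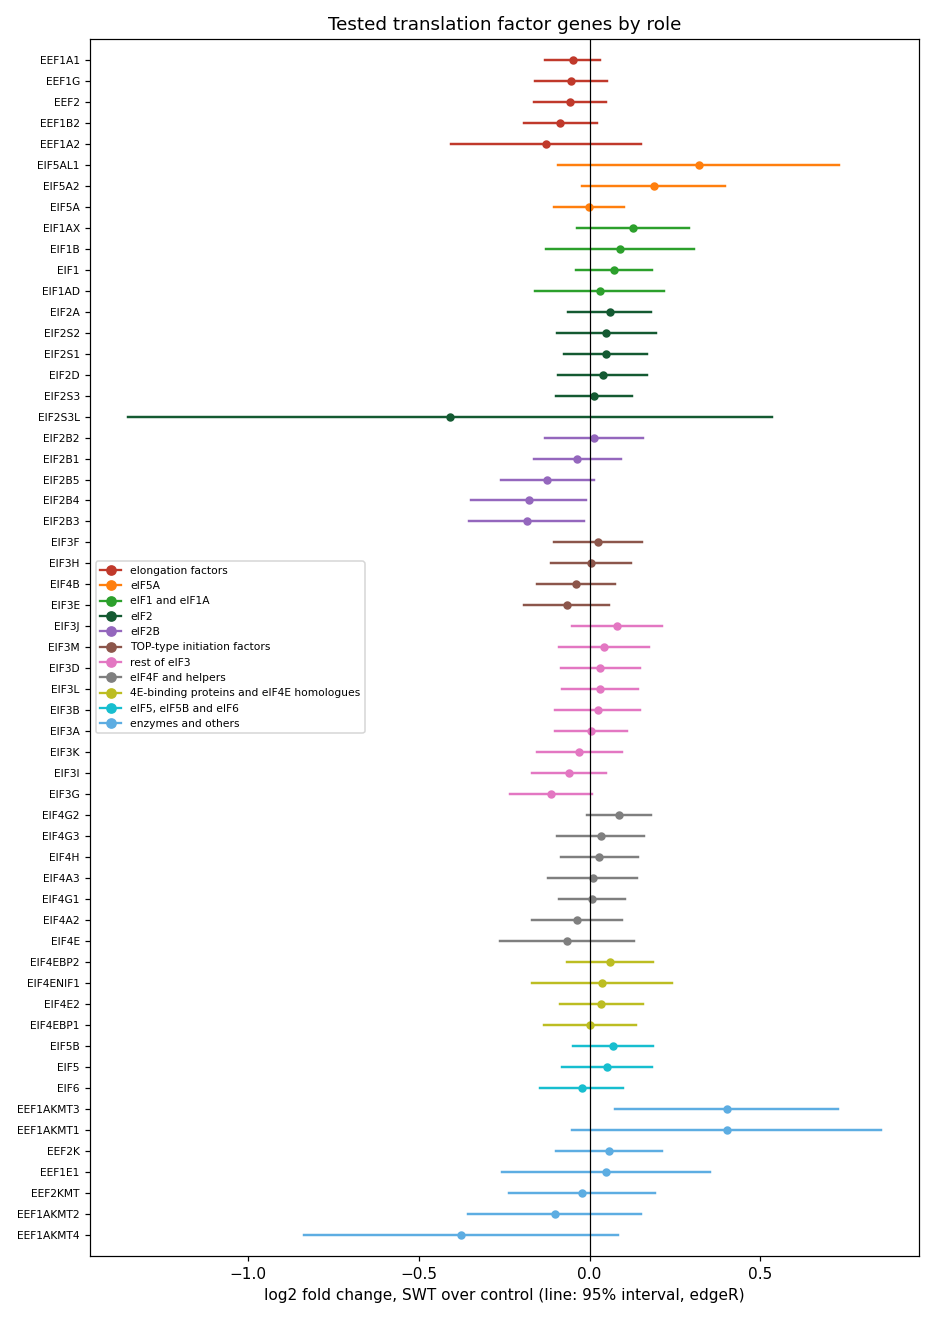
Log2 fold change of SWT over control for the 57 tested members, grouped by role from top to bottom, with a point for the edgeR estimate and a line for its 95% interval. All 5 elongation factors lie between -0.13 and -0.050 with intervals that include 0, and the intervals of EIF2B3, EIF2B4 and EEF1AKMT3 do not include 0 before adjustment over all genes.

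Of the 57 tested members, 35 lay above 0 and 22 below (38.6%, against 50.3% of all genes), with a median of 0.013. An unadjusted edgeR p under 0.05 was found for 1 higher member (EEF1AKMT3), against 2.81% of all genes, and for 2 lower (EIF2B3 and EIF2B4), against 2.96% of all genes. Both directions made 5.26% of members and 5.77% of all genes. No member was called under any alternative. Of all genes, edgeR called 0.355% without a filter, 0.00807% with the replicate block and 0.782% with crossed pairs. It called 0.346% without SWT replicate 1, 0.135% without SWT replicate 2, 0.978% without control replicate 1 and 1.6% without control replicate 2. Groups did not overlap in 20 of 57 members (35.1%), 11 with SWT above and 9 with SWT below, against 35.3% of all genes. The precision was better than for genes at large: the 95% interval lay within 0.5 of 0 on the log2 scale for 52 members (91.2%), against 77.6% of all genes, and within 0.25 for 42 members, against 41.8% of all genes. Where an interval is that narrow, a difference beyond it is not what these libraries show, while any difference inside it remains compatible with them.

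**Figure D5:**
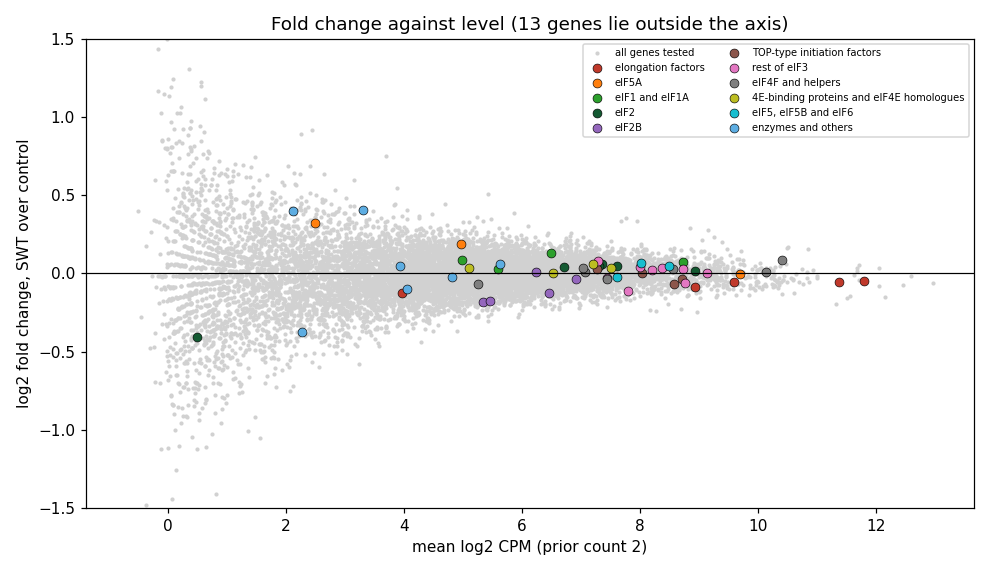
Log2 fold change of SWT over control against mean log2 CPM for 12399 tested genes in grey and the 57 tested members in colours by role; 13 genes lie outside the vertical axis. Members above 6 on the horizontal axis lie within 0.2 of 0, and the members farthest from 0 (EIF2S3L, EEF1AKMT1, EEF1AKMT3, EEF1AKMT4 and EIF5AL1) have low levels.

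Levels between genes were compared per kilobase of transcript, as CPM per kilobase averaged over the 4 libraries. EEF1A1 stood at 1025 ± 25.9 and EEF2 at 837 ± 46.6 (SD, n = 4). Among 25694 genes with a known transcript, these were ranks 59 and 80. EIF5A followed at 653 ± 13.4, EEF1B2 at 555 ± 19.3, EIF1 at 532 ± 18.6, EEF1G at 506 ± 17.1 and EIF4G2 at 373 ± 13.3 (SD, n = 4). EEF1B2 and EIF1, and EIF1 and EEF1G, differed by less than the sum of their SDs. The order rests on the transcript taken for each gene.

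Within families the per-kilobase levels spread widely. Subunits of eIF3 ran from 99.0 ± 4.13 for EIF3B to 297 ± 7.27 for EIF3I, and those of eIF2B from 17.4 ± 0.506 for EIF2B2 to 68.0 ± 1.44 for EIF2B1 (SD, n = 4). The low place of EIF2B2 depends on the long transcript taken for it, 4314 bases against 1768 for EIF2B1. By mean CPM, with no division by length, EIF2B2 stood at 75.0, above EIF2B3 at 40.6 and EIF2B4 at 43.7. Of the 3 scaffold genes together, EIF4G2 made up 61.7% and 60.5% in SWT libraries and 59.6% and 60.0% in controls, both SWT libraries above both controls. EIF4E2 made up 78.7% and 81.1% of EIF4E and EIF4E2 together in SWT libraries and 79.8% and 77.8% in controls. Of the EIF4E transcript 47.4% was shared with other genes, mainly EIF4EP2, against 0% of EIF4E2. The part of shared sequence in this share was not tested. EIF4EBP1 made up 80.8% and 82.0% of EIF4EBP1 and EIF4EBP2 in SWT libraries and 81.7% and 82.4% in controls. By counts, with no division by length, the share of EIF4EBP1 was 37.1% and 39.0% in SWT libraries and 38.5% and 39.6% in controls, so which of the pair is the larger depends on the long transcript taken for EIF4EBP2.

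Other genes of translation control were described from a list of 48, of which 46 were tested. There were 23 above 0 and 23 below, the median was -0.0023 on the log2 scale, and edgeR, DESeq2 and limma called none, while 3 of 46 (6.52%) had an unadjusted edgeR p under 0.05, against 5.77% of all genes. GSPT1, the release factor eRF3a, had 287 and 288 CPM in SWT libraries and 256 and 261 CPM in controls, and the log2 fold change was 0.16 (SE 0.054; adjusted p = 0.838, edgeR). RPS6KB2, a ribosomal S6 kinase, had 42.4 and 43.4 CPM in SWT libraries and 51.0 and 48.6 CPM in controls, at -0.21 (SE 0.076, edgeR adjusted p = 0.838). Neither gene had overlapping groups. Groups did not overlap in 19 of the 46 tested genes (41.3%), against 35.3% of all genes.

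DDIT4, an inhibitor of mTORC1, had 248 and 287 CPM in SWT libraries and 346 and 282 CPM in controls. Control replicate 1 stood high and the groups overlapped. Its log2 fold change was -0.23 (SE 0.082, edgeR adjusted p = 0.838). Without control replicate 2 it was -0.37 and without control replicate 1 it was -0.075, each in a fit with 1 control library. With all 4 libraries, edgeR adjusted p-values ran from 0.00032 with crossed pairs to 0.999 with the replicate block. MTOR had 121 and 133 CPM in SWT libraries and 134 and 121 CPM in controls, and LARP1 had 390 and 401 CPM in SWT libraries and 373 and 383 CPM in controls. Other TOP mRNAs, outside the lists of ribosomal protein and factor genes, were mixed. TPT1 had 1832 and 1833 CPM in SWT libraries and 1908 and 1903 CPM in controls. RACK1 had 1245 and 1257 CPM in SWT libraries and 1261 and 1326 CPM in controls. In these 2 of the 5 listed, both SWT libraries lay below both controls, as they did in 18% of all genes. PABPC1, NAP1L1 and HNRNPA1 had overlapping groups, and the 5 genes had a median log2 fold change of -0.0037.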

How the data were processed

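The authors deposited raw counts per gene symbol for 28058 genes, and the submitters' processing notes name hg38, STAR 2.5.3a, HTSeq, DESeq2, FastQC 0.11.5 and Trimmomatic 0.36 with no role for any. The annotation and strand setting are not given in the sources used here. They also deposited a log2 table of 17151 genes, used for 1 alternative. Library totals were 9888263 to 11686808 counts. The test was that of edgeR 4.0.16, run in R 4.3.3 (TMM, filterByExpr, quasi-likelihood test, Benjamini-Hochberg over 12399 genes, threshold 0.05). Standard errors come from each estimate and its F value, so the 95% intervals are approximate. Genes named in full follow a rule (elongation factors, known TOP initiation factors, and in each role group the highest member and the one with the smallest p). The members and lists were chosen with earlier results of these data known. Alternatives were DESeq2 size factors, a filter at a mean count of 50 and none, a replicate block, each library left out, DESeq2 1.42.0, limma 3.58.1 on the log2 values, a threshold of 0.1, and removal of each library's length and GC trend (97.4% of tested genes had both). Transcripts are those of median length among basic coding transcripts in GENCODE 29. The labels' numbers did not pair the libraries (correlation of same-numbered deviations -0.264). Intervals cover counting and library spread as the model has it. EIF1AY, a Y-linked member, is given no level. Plots were drawn in Python 3.11.15 with matplotlib 3.10.9.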

Additional observations from a re-analysis of the deposited data

How the results depend on the processing

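edgeR called 0 genes in each direction with DESeq2 size factors or a mean count of 50, as did DESeq2 and limma on the log2 values. Without a filter it called 20 higher and 43 lower. Leaving out a library each time, it called 2 to 106 higher and 15 to 97 lower. With the replicate block it called 0 higher and 1 lower, and the elongation and initiation medians were -0.057 and 0.013. The crossed pairing, added after seeing the data, called 55 higher and 42 lower. No member was called in any of these, so the wide range of calls lies in other genes.

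With each library left out, the median log2 fold change ran from -0.089 to -0.020 for elongation factors and from -0.028 to 0.039 for initiation factors, and their difference from -0.12 to -0.042. The eIF2B median, an alternative added after its values were seen, was -0.050 on the deposited log2 values. Sizes on those values are not comparable with the edgeR log2 fold changes. EEF1AKMT3 stood at 0.038 there and at 0.40 in edgeR, and EEF1A1 at -0.034 there and at -0.050 in edgeR.

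Of 372 comparisons of a named gene with an alternative, 351 kept direction and side of the threshold, 3 newly passed it (all DDIT4) and 18 changed sign. Leaving out a library gave -0.29 to 0.0067 for EEF1A2, -0.13 to 0.019 for EEF2, -0.023 to 0.070 for EIF3F, -0.031 to 0.041 for EIF3H and -0.076 to 0.0023 for EIF4B. It gave -0.028 to 0.056 for EIF2S3, -0.024 to 0.030 for EIF3A, -4.5e-05 to 0.068 for EIF4E2, -0.044 to 0.15 for EIF5 and -0.030 to 0.026 for EIF5A. Without a change of sign, it gave -0.070 to -0.028 for EEF1A1, 0.039 to 0.11 for EIF1, -0.062 to -0.011 for EIF2B1, -0.23 to -0.12 for EIF2B4, -0.16 to -0.072 for EIF3G, 0.030 to 0.092 for EIF4EBP2 and 0.037 to 0.10 for EIF5B. Without the trends with length and GC content, EIF3H and EIF2S3 stood at -0.013, EIF3A at -0.024 and EIF5A at 0.045. Apart from the left-out libraries, whose fits hold fewer samples, the cause of these changes was not tested. With 2 libraries a group, the values inside each 95% interval could not be told apart.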
